A study of Homo sapiens with 6 samples.

Results

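The genes described here encode 4 matrix metalloproteinases (MMP1, MMP2, MMP3 and MMP14), 3 tissue inhibitors of metalloproteinases (TIMP1, TIMP2 and TIMP3), the urokinase plasminogen activator (PLAU) and its receptor (PLAUR). They are 9 of the 19792 genes in the authors' deposited table and were taken by symbol. RNA-seq was performed on BT-549 cells, a human triple-negative breast cancer line, carrying a doxycycline-inducible WDR5 shRNA (tet-WDR5shRNA) in a vector selected with puromycin. The cells of 3 cultures received 0.1% DMSO as vehicle and those of 3 cultures received 500 ng/ml doxycycline (DOX), which switches the shRNA on, for a week by the study's methods. All 6 libraries carry the shRNA construct, so an effect of DOX itself and of lower WDR5 cannot be told apart in this design. The shRNA is 1 sequence against WDR5.

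The value analysed for each gene is the authors' mean normalized count, which is pooled over the vehicle and DOX libraries. Values of the separate cultures were not analysed here. Library depth is therefore unknown, no value below has an SD, and no difference between DOX and vehicle was tested. The columns of the authors' own comparison were not used here. The mean of WDR5 itself, 1143, covers both groups and does not check the labels. The levels below therefore describe which of these genes BT-549/tet-WDR5shRNA cells expressed and in what proportion, not how they responded to WDR5 silencing.

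Matrix metalloproteinases are zinc-dependent proteases made as inactive precursors that cut collagens and other proteins of the extracellular matrix. TIMPs bind active metalloproteinases and block them. Urokinase, held at the cell surface by its receptor, turns plasminogen into plasmin, a serine protease that degrades fibrin and can activate several metalloproteinase precursors. Together these systems are known for their part in the invasion of breast cancer cells through matrix.

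A level was divided by the length of the gene's reference transcript, in kilobases, before genes were compared, since a longer transcript yields more reads. All 9 genes reached a mean normalized count of 10, as did 68.5% of all genes. A mean of 100 was reached by 8 of the 9 and by 54.6% of all genes. MMP3 was the exception at 23.2. Per kilobase, TIMP1, MMP14, TIMP2, PLAUR and PLAU lay above 90% of the 18615 genes with a transcript length. MMP1 and MMP2 lay above 73.8% and 71.4%, TIMP3 near the middle at 51.7%, and MMP3 at 34.2%. By coding length, among the 15800 genes that have one, TIMP3 lay above MMP2 and MMP1, at 65.1% against 61.5% and 59.7%. The 9 genes together held 0.145% of the summed mean normalized counts.

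**Figure D1:**
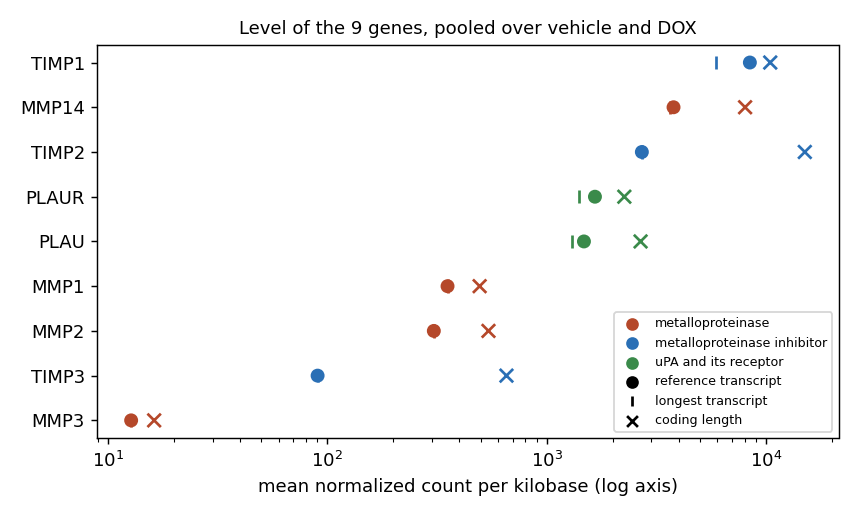
Each of the 9 genes is a row, and the x axis is the authors' mean normalized count per kilobase on a log scale, with circles for the reference transcript, bars for the longest annotated transcript and crosses for the coding length. By the reference transcript, the levels run from 12.7 for MMP3 to 8443 for TIMP1, and the cross of TIMP2 moves to 15032, above that of TIMP1.

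Among the MMP genes, MMP14 had the highest level per kilobase. MMP14 (also MT1-MMP) is anchored in the plasma membrane, cuts fibrillar collagen and activates the MMP2 precursor. In GENCODE 44 on GRCh38 it spans bases 22836560 to 22849041 of chromosome 14, on the plus strand, and its reference transcript has 10 exons. Its mean normalized count was 14020, which placed it at rank 237 of all genes, and its level per kilobase was 3788.

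MMP2 (gelatinase A), the precursor that MMP14 activates, was at a mean normalized count of 1075 and a level per kilobase of 306. MMP14 was thus at 12.4 times the level of MMP2 per kilobase. MMP2 lies on chromosome 16 from 55389700 to 55506691 on the plus strand. Of its 8 annotated transcripts, 2 start upstream of the reference transcript, which begins at 55479198 and, at 3514 bases, is the longest.

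MMP1 (interstitial collagenase) and MMP3 (stromelysin 1) are secreted proteases whose genes lie close to each other on chromosome 11. MMP1 spans 102789401 to 102798160 and MMP3 spans 102835801 to 102843609, both on the minus strand, with 37.6 kb between them. MMP1 had a mean normalized count of 696 and a level per kilobase of 353, close to the 306 of MMP2. MMP3 had a level per kilobase of 12.7, so that MMP1 was at 27.7 times the level of its neighbour. Whether MMP1 was above MMP2 depended on the length used, since MMP2 was at 543 and MMP1 at 495 per kilobase of coding sequence.

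The annotation places 8 metalloproteinase genes of the table in this stretch of chromosome 11, over 435 kb. MMP1 held 94.3% of their summed level per kilobase. MMP3 and MMP13 (collagenase 3) were the other genes at or above 10, at 23.2 and 10.3, and MMP10 (stromelysin 2) followed at 6.79. MMP7, MMP8, MMP12 and MMP20 were each under 1, from 0.296 to 0.420. Thus, 1 gene of the cluster was above 100 and 5 were under 10. Of all genes, 54.6% were at or above 100 and 68.5% at or above 10. The mean of MMP1 can hold reads of a transcribed pseudogene, WTAPP1, that spans it on the opposite strand from 102746968 to 102836766. WTAPP1 also overlaps a part of MMP3, so the mean of MMP3 can hold its reads too. Both overlaps are of gene spans, and whether exons overlap was not examined. The libraries are stranded, but whether the counting used the strand is not given in the sources used here.

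**Figure D2:**
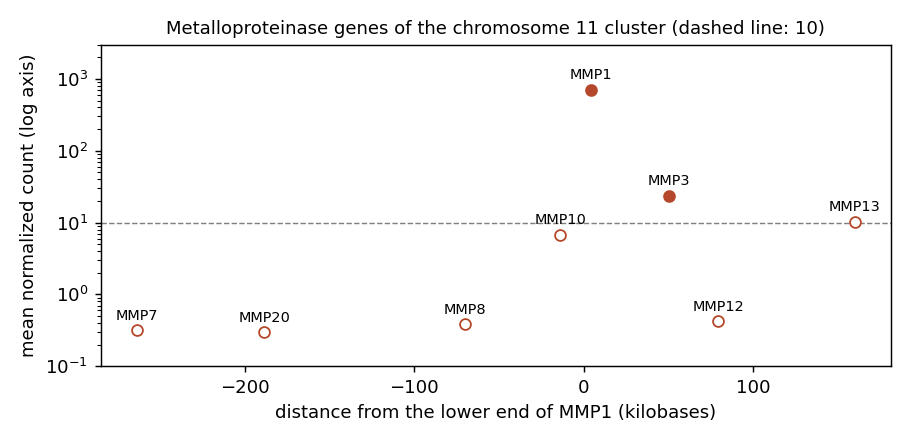
The 8 metalloproteinase genes of the chromosome 11 cluster are plotted by their distance in kilobases from the lower end of MMP1 (x axis) and their mean normalized count on a log scale (y axis), with filled circles for MMP1 and MMP3. MMP1 stands alone above 100, and MMP7, MMP8, MMP12 and MMP20 are all under 1.

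Across the metalloproteinase family, 22 genes had a row, of which 11 were at or above a mean normalized count of 10 and 7 at or above 100. Of all genes, 68.5% were at or above 10 and 54.6% at or above 100. MMP14 alone made up 80.1% of the family's summed level per kilobase, MMP1 7.47%, MMP2 6.47% and MMP3 0.270%. The other genes above 100 were MMP16 at 565, MMP11 at 212, MMP17 at 128 and MMP28 at 102. MMP16 and MMP17 are, like MMP14, membrane-type enzymes. Per kilobase, MMP16 was at 49.0, since its reference transcript has 11551 bases, MMP11 at 93.6, MMP17 at 53.3 and MMP28 at 41.3. The gelatinase MMP9 was at a mean normalized count of 4.48.

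**Figure D3:**
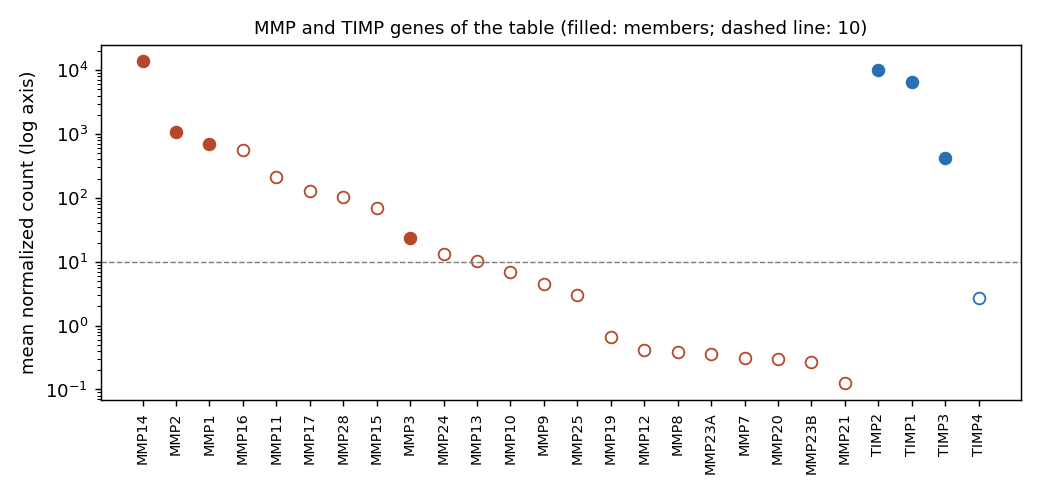
The 22 MMP genes and 4 TIMP genes of the table are ordered by mean normalized count (y axis, log scale), with filled circles for the 7 genes described here and a dashed line at 10. MMP14 at 14020 is the highest of the MMP genes, TIMP2 and TIMP1 are at 9921 and 6493, and TIMP4 is at 2.69.

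Of the inhibitors, TIMP1 and TIMP2 were abundant and TIMP3 was not. TIMP1 inhibits most secreted metalloproteinases but membrane-type enzymes such as MMP14 only poorly. It lies on chromosome X from 47582408 to 47586789 on the plus strand, with 6 exons. Its mean normalized count was 6493, on a short reference transcript of 769 bases. This gave a level per kilobase of 8443, rank 157 of the genes with a length and 2.23 times the level of MMP14. Before division by length, TIMP1 was at 0.463 times the mean normalized count of MMP14.

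TIMP2 inhibits MMP14 and, at the cell surface, also forms the complex with MMP14 in which the MMP2 precursor is bound and activated. It lies on chromosome 17 from 78852977 to 78925387 on the minus strand, with 5 exons. Its mean normalized count was 9921 and its level per kilobase 2717. MMP14 was at 1.39 times the level of TIMP2 per kilobase of transcript, but at 0.534 times by coding length. The annotated transcripts of TIMP2 run from 1012 to 3652 bases, and which of them the cells used is unknown from these values.

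TIMP3, an inhibitor that binds to the matrix and also acts on ADAM proteases, was far lower. It lies on chromosome 22 from 32801705 to 32863041 on the plus strand, and 1 transcript of 4597 bases is annotated. Its mean normalized count was 415 and its level per kilobase 90.3. TIMP1 and TIMP2 were at 93.5 and 30.1 times the level of TIMP3 per kilobase of transcript. By coding length these ratios were 15.9 and 22.9. TIMP4 had a mean normalized count of 2.69, and TIMP1 and TIMP2 held 75.0% and 24.1% of the family's summed level per kilobase of reference transcript. This split turned by coding length, where TIMP1 held 39.99% and TIMP2 57.5%, and without division by length, where they held 38.6% and 58.9%. The summed level of the 4 TIMP genes was 2.38 times that of the 22 MMP genes per kilobase of reference transcript, but 0.994 times without division by length. These sums compare transcripts and not proteins.

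TIMP1 lies within SYN1 and TIMP3 within SYN3, synapsin genes on the opposite strand. SYN1 had a mean normalized count of 114 beside the 6493 of TIMP1. TIMP2 lies within no other annotated gene and encloses CEP295NL on its own strand, which was at 3.998. These overlaps are of gene spans, and whether exons overlap was not examined. Where they do, reads can be told apart only as far as the authors' counting did so.

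PLAU and PLAUR, the protease and its receptor, were at nearly the same level per kilobase. PLAU lies on chromosome 10 from 73909177 to 73917496 on the plus strand, with 11 exons. It had a mean normalized count of 3465 and a level per kilobase of 1479. C10orf55, a non-coding gene on the opposite strand that overlaps PLAU, was at 46.8. PLAUR, whose product is tied to the membrane by a lipid anchor, lies on chromosome 19 from 43646095 to 43670547 on the minus strand. Its mean normalized count was 2271 and its level per kilobase 1660, so that PLAU was at 0.891 times the level of PLAUR. By coding length the ratio was 1.19, and the order of PLAU and PLAUR is not settled by these values.

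Of the 9 genes of the plasminogen system with a row, 8 (88.9%) were at or above a mean normalized count of 10, against 68.5% of all genes. PLAT, the tissue-type plasminogen activator, was at 24.0, which was 7.85 per kilobase against the 1479 of PLAU. Among the receptors that hold plasminogen at the surface, ANXA2 (annexin A2) was at 24363, its partner S100A10 at 5973 and PLGRKT at 486. Per kilobase, ANXA2 and S100A10 lay above 99.6% and 99.2% of genes and PLGRKT above 79.8%. LRP1, an endocytic receptor that clears proteases bound to their inhibitors, was at 7155, and MRC2, a collagen receptor that associates with PLAUR, was at 1360. Per kilobase, LRP1 and MRC2 were at 479 and 238, under the 1479 of PLAU. VTN, the vitronectin that PLAUR binds, was at 3.43. The gene of plasminogen itself (PLG) was on the list but had no row.

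Serpins include the inhibitors of urokinase. Of 27 SERPIN genes, 12 (44.4%) were at or above a mean normalized count of 10, against 68.5% of all genes. SERPINE2 (protease nexin 1), which inhibits urokinase and thrombin, was the highest at 30487. Per kilobase, SERPINE2 was at 13696 and PLAU at 1479. SERPINB2 (PAI-2) was at a mean normalized count of 0.399, and SERPINF2, the inhibitor of plasmin, at 1.35. SERPINH1, a collagen chaperone of the endoplasmic reticulum and not a protease inhibitor, was at 21681. Also above 100 were SERPINB6 at 2709, SERPINB8 at 1742, SERPING1 at 377, SERPINB1 at 299.8 and SERPINI1 at 216.

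The 7 listed genes for surface and secretory pathway proteins that act on metalloproteinases or bind them were at or above a mean normalized count of 100, as were 54.6% of all genes. CD44, which docks metalloproteinases at the membrane, was at a mean normalized count of 48038, CAV1 (caveolin 1) at 28550 and BSG (basigin, an inducer of metalloproteinases) at 20156. ITGAV and ITGB3, the subunits of the vitronectin receptor, were at 4763 and 322. RECK, a membrane-anchored inhibitor of metalloproteinases, was at 684, and FURIN, the convertase that activates the MMP14 precursor, was at 243. Per kilobase, RECK was at 155 and FURIN at 57.2, beside the 3788 of MMP14.

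Related metalloproteases of the ADAM and ADAMTS families were also measured. Of all genes, 68.5% were at or above a mean normalized count of 10 and 54.6% at or above 100. Of 17 ADAM genes, 11 (64.7%) were at or above 10 and 6 (35.3%) at or above 100. ADAM9 led at 40096, which was 9751 per kilobase and so above MMP14. By mean normalized count, ADAM12, ADAM10, ADAM17, ADAM15 and ADAM19 followed at 8097, 4638, 3392, 2992 and 1074. The order differed per kilobase, with ADAM12 at 1020, ADAM15 at 1019, ADAM17 at 772, ADAM10 at 416 and ADAM19 at 166. Of 19 ADAMTS genes, 14 (73.7%) were at or above 10 and 8 (42.1%) at or above 100, from 146 for ADAMTS14 to 1736 for ADAMTS4. ADAMTS6, ADAMTS12, ADAMTS15 and ADAMTS2 were at 1381, 1096, 759 and 673, and ADAMTS3 and ADAMTS1 at 336 each. Their levels per kilobase ranged up to 189 for ADAMTS6, under those of MMP1 and MMP2.

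AP-1 is a family of transcription factors that the study follows, and several MMP and urokinase system genes are known AP-1 targets. The 250 bases before the start were searched on both strands in 6 RefSeq promoters (GRCh38.p14) of MMP14, PLAU (2 starts), PLAUR, TIMP1 and TIMP3, out of 35116 promoters. The AP-1 motif, searched as TGANTCA with any base at N, was found in 1 of the 6, that of PLAUR, and in 6.57% of all promoters. The TATA box TATAAA was in none of the 6 and in 10.7% of all promoters. The SP1 motif GGGCGG was in 4 of the 6 and in 42.6% of all promoters. MMP1, MMP2, MMP3 and TIMP2 were not searched, and no gene was searched further upstream. The PLAUR match and the SP1 match of MMP14 are shown 5′ to 3′ on the strand of the gene, with the motif in capitals, as the places where these letters occur and not as bound sites.
PLAUR: caactccaTGAGTCAgggccgag
MMP14: gggcactgGGGCGGggacggag
The PLAUR sequence is at chr19:43670341-43670363 on the minus strand and its motif begins 186 bases before the start. The MMP14 sequence is at chr14:22836511-22836532 on the plus strand and its motif begins 66 bases before the start. TIMP3 held 5 SP1 matches, TIMP1 2, and the downstream start of PLAU 3.

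The identity of the cells was checked by pooled marker levels. The mesenchymal genes VIM, FN1, ZEB1 and CDH2 were at mean normalized counts of 47782, 30461, 7333 and 4093. Of 6 luminal and epithelial genes, ESR1, PGR, FOXA1 and EPCAM were each at or under 1.30, whereas CDH1 was at 59.6 and GATA3 at 362, so GATA3 was not low. Of endothelial genes, PECAM1, VWF and CDH5 were at 2.86, 0.621 and 0.172. Of the listed leukocyte genes, CD3E had no row, and PTPRC and CD68 were at 44.7 and 1813. Whether leukocytes had a part in the levels of the 9 genes was not tested.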

How the data were processed

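The 3 vehicle and 3 DOX libraries of BT-549/tet-WDR5shRNA cells were grouped by their titles. By the study's methods and the submitters' processing notes, RNA from triplicate cultures was made into stranded poly(A) libraries and aligned to GRCh38 with STAR, and the authors normalized the gene counts with DESeq2. Which program counted reads per gene, and any filter of low counts, is not given in the sources used here. For each gene the authors deposited 1 signal value, its mean normalized count over all 6 libraries. The other 5 columns of the deposited table are the authors' own comparison (log2 fold change, its standard error, statistic, p-value and adjusted p-value), and they were not used here. The design planned a count test for values of single libraries, which was not run, because the table holds a pooled mean only. Depth and replicate error are unknown from it.

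Levels were divided by the length of the GENCODE 44 canonical transcript. Of 19792 symbols, 17921 matched by symbol, 694 through a RefSeq synonym and 1177 not at all. The genes named were the 9 genes, those of 7 lists set by symbol whose mean normalized count reached 100, and the cell type markers. A gene that this rule names is not reported here. Genes below 100 were named after their values were seen, as examples. The 9 genes and the lists were chosen with earlier results of these data known. Alternatives were no division by length, the longest transcript, the coding length, and thresholds of 1 and 50. Percentiles and the search for motifs planted on the forward strand were tested on simulated data. The search of the reverse strand was not tested in this way. Python 3.11.15, numpy 2.4.6, scipy 1.17.1 and matplotlib 3.10.9 were used.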

Additional observations from a re-analysis of the deposited data

How the results depend on the processing

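Of the 9 genes, 5 lay at or above the 90th percentile per kilobase of reference transcript. The number was also 5 with the longest transcript and among genes whose mean normalized count reached 10, and 4 without division by length. It was 3 with the coding length, among the 15800 genes that have one, where TIMP1, TIMP2 and MMP14 stayed. The order of the 9 genes was the same with the longest transcript. It changed with the coding length, where TIMP2 came before TIMP1, PLAU before PLAUR and TIMP3 before MMP2 and MMP1, and without division by length, where MMP14 came first, TIMP2 before TIMP1, PLAU before PLAUR and MMP2 before MMP1. MMP3 was last in each. In a check chosen after the values were seen, the summed TIMP level was 2.38 times the summed MMP level by reference transcript, 1.92 times by longest transcript, 2.69 times by coding length (21 MMP genes) and 0.994 times without division by length. At a threshold of 50 in place of 10, 9 ADAMTS genes were counted in place of 14, and the counts of the other 6 lists at thresholds of 1 and 50 stayed within 1.5 times. No paired analysis was possible because the table holds no values of single libraries, and for the same reason leaving out a replicate, other normalizations and filters of a count test were not run.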
